A study of Mus musculus with 12 samples.

Results

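The genes described here are the platelet-derived growth factor (PDGF) ligands and receptors, 6 genes in all. They are the 4 ligand genes *Pdgfa*, *Pdgfb*, *Pdgfc* and *Pdgfd* and the 2 receptor genes *Pdgfra* and *Pdgfrb*. They were chosen by name, as complete rows of the deposited tables, which listed 23284 genes for sorted osteoblasts and 24346 for MC3T3-E1 cells. Each gene was followed through 12 RNA-Seq libraries that form 4 groups of 3.

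In the first experiment, osteoblasts were sorted as 7AAD-Lin-CD45-ECFP+ cells from enzymatically digested bone of female Col2.3-ECFP mice. In these mice a fragment of the type I collagen promoter drives a cyan fluorescent protein, so the gate selects cells in which that promoter is active. The mice were 12 weeks old at the start and received vehicle (PBS) or human PTH(1-34), a parathyroid hormone fragment, over 3 weeks, with 5 daily injections of 40 µg/kg in each week. The cells were collected 24 h after the last injection. In the second experiment, MC3T3-E1 cells, a pre-osteoblast line from mouse calvaria, carried either the empty retroviral vector (mock) or the vector with *Slpi*, which encodes secretory leukocyte protease inhibitor. Both lines had been selected with puromycin, and the RNA came from cells that were not yet confluent. The methods state in general terms that biological replicates were different mice, but do not say whether a sorted library held cells of 1 mouse or a pool. Whether the MC3T3-E1 libraries came from separate cultures is not given, so that their *p* values measure the spread between these libraries, which may be technical.

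PDGF ligands are secreted dimers that act on a pair of receptor tyrosine kinases, PDGFRα and PDGFRβ. PDGF-A signals through PDGFRα, PDGF-B binds either receptor, PDGF-C acts mainly through PDGFRα and PDGF-D mainly through PDGFRβ. PDGF-C and PDGF-D are released as latent forms that extracellular proteases activate. In bone, PDGFs are known as mitogens and attractants for mesenchymal cells, *Pdgfra* marks many mesenchymal progenitors, and *Pdgfrb* is expressed by stromal cells and by the mural cells of vessels.

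On mm10 with GENCODE M21, *Pdgfa* lies at chr5:138976014-138997370 on the minus strand and *Pdgfra* at chr5:75152292-75198215 on the plus strand of the same chromosome. *Pdgfb* lies at chr15:79995874-80014977 (minus strand), *Pdgfc* at chr3:81036416-81214040 (plus strand) and *Pdgfd* at chr9:6168584-6378850 (plus strand), while *Pdgfrb* is on the plus strand of chromosome 18. Annotated antisense RNAs overlap *Pdgfa*, *Pdgfb*, *Pdgfc* and *Pdgfra* and had no rows in the tables. The kit used for the sorted cells does not mark strand, and the counting strand is not given for either experiment, so reads of these antisense RNAs cannot be told apart from those of the members.

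*Pdgfa* and *Pdgfc* were the members with a higher level in the treated libraries of both experiments, and the sequence upstream of each start is shown for this reason. The windows are from the RefSeq promoter table of GRCm38.p6, which held 4 of the 6 members. They are written 5′ to 3′ on the gene's strand. Capitals mark TGACG, the core of the cAMP response element, which was searched on both strands because the PTH receptor signals through cAMP.

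*Pdgfa*, chr5:138995038-138995194, minus strand: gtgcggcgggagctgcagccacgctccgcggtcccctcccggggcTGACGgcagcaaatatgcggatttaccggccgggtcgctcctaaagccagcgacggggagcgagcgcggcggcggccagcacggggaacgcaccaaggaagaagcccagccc
*Pdgfc*, chr3:81036166-81036415, plus strand: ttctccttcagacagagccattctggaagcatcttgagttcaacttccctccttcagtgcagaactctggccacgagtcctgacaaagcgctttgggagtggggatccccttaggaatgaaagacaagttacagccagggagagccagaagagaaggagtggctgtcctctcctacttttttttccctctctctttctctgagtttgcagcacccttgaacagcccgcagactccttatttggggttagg

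The *Pdgfa* window of 157 bases was 72.0% G and C and held 1 TGACG, found in 8.84% of all 32851 windows of that length. It lies within an intron of the longer *Pdgfa* transcripts and overlaps an exon of the antisense gene 6330403L08Rik. It had been cut from 250 bases at an annotated *Pdgfa* exon, so the bases nearest the RefSeq start were not searched. The *Pdgfc* window of 250 bases was 50.8% G and C and held no TGACG, against 17.8% of windows of that length. The GC box, spelled GGGCGG, was on neither strand of either window, and was held by 17.6% of all windows at 157 bases and 32.7% at 250 bases. The TATA box, spelled TATAAA, was also absent from both and was held by 7.55 and 12.4% of windows. The same was true of the CCAAT box (21 and 33.8% of windows), of the RUNX core, spelled TGTGGT (9.13 and 14%), and of the TCF/LEF core, spelled CTTTGA (9.63 and 13.8%). A match is only a description of the letters.

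The values are FPKM, fragments of a gene corrected for transcript length and for how many reads were mapped, so that levels can be compared between genes within a library. They summed to between 400838.8 and 462460.2 in the sorted libraries and between 541932.2 and 599746.4 in the MC3T3-E1 libraries. The read depth is unknown. The *Slpi* row followed the labels, at 1.64, 2.38 and 2.62 FPKM in vehicle and 37.5, 19.8 and 27.2 in PTH libraries, and at 377, 396 and 386 in mock against 2105.4, 1972.7 and 1848.4 in *Slpi* libraries. The sorted cells had the osteoblast marker *Bglap* at 6962.7 FPKM or more in every library, whereas in MC3T3-E1 cells it was at 2.85 or less and the early marker *Runx2* was between 34.2 and 56.4. *Col1a1*, the gene whose promoter drives the reporter, and *Col1a2*, its partner chain, were both listed at 0 in vehicle replicate 3 and in all 3 PTH libraries, which in such cells may be failed estimates. In vehicle replicates 1 and 2 they were at 26216.5 and 24170.4 FPKM (*Col1a1*) and 26654.7 and 24544.0 (*Col1a2*), so that the FPKM sums of the sorted libraries are not made of the same genes. Genes of other cells moved with PTH, and their part in the results on the PDGF genes was not tested. Of the tested markers, 6 of 9 neutrophil genes were called higher and 4 of 6 lymphocyte genes lower. Of all tested genes, 6.38% were called higher and 8.85% lower with PTH. The summed neutrophil level was 365 to 454 in vehicle and 682 to 2302.4 in PTH libraries, and the lymphocyte level was 120 to 182 and 3.36 to 31.3. The megakaryocyte and platelet list, with 1 of 8 genes called higher, summed to 3.87, 7.13 and 5.65 in the vehicle group (replicates 1, 2 and 3, in this order) and to 196, 160 and 6.74 in the PTH group. Of 4 endothelial genes, and of 4 macrophage genes, 0 were called by limma (1 and 0 at an unadjusted *p* under 0.05). In bulk samples, a smaller share of cells of a type cannot be told apart from less RNA per cell.

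In vehicle-treated osteoblasts, *Pdgfa* had the highest mean level of the family, at 41.2 ± 2.02 FPKM (SD, n = 3), followed by *Pdgfra* at 37.0 ± 4.00. The ranges of these genes overlapped, although *Pdgfa* was above *Pdgfra* in each of the 3 libraries. *Pdgfd* followed at 27.9 ± 3.94, *Pdgfc* at 17.6 ± 1.23 and *Pdgfrb* at 7.32 ± 0.701, each apart from its neighbours. *Pdgfb* was far below the others, at 0.162 ± 0.111. The order of the means was the same under PTH, but the range of *Pdgfd* then overlapped those of *Pdgfra* and *Pdgfc*. In mock MC3T3-E1 cells the receptors led, *Pdgfrb* at 58.9 ± 0.987 FPKM and *Pdgfra* at 43.0 ± 0.745. The ligands followed, with *Pdgfa* at 22.4 ± 1.71, *Pdgfc* at 17.4 ± 0.360, *Pdgfd* at 5.97 ± 0.423 and *Pdgfb* at 0.118 ± 0.00872, and no neighbouring ranges overlapped. The tables of the experiments were normalized separately and these levels are set side by side without a test.

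**Figure D1:**
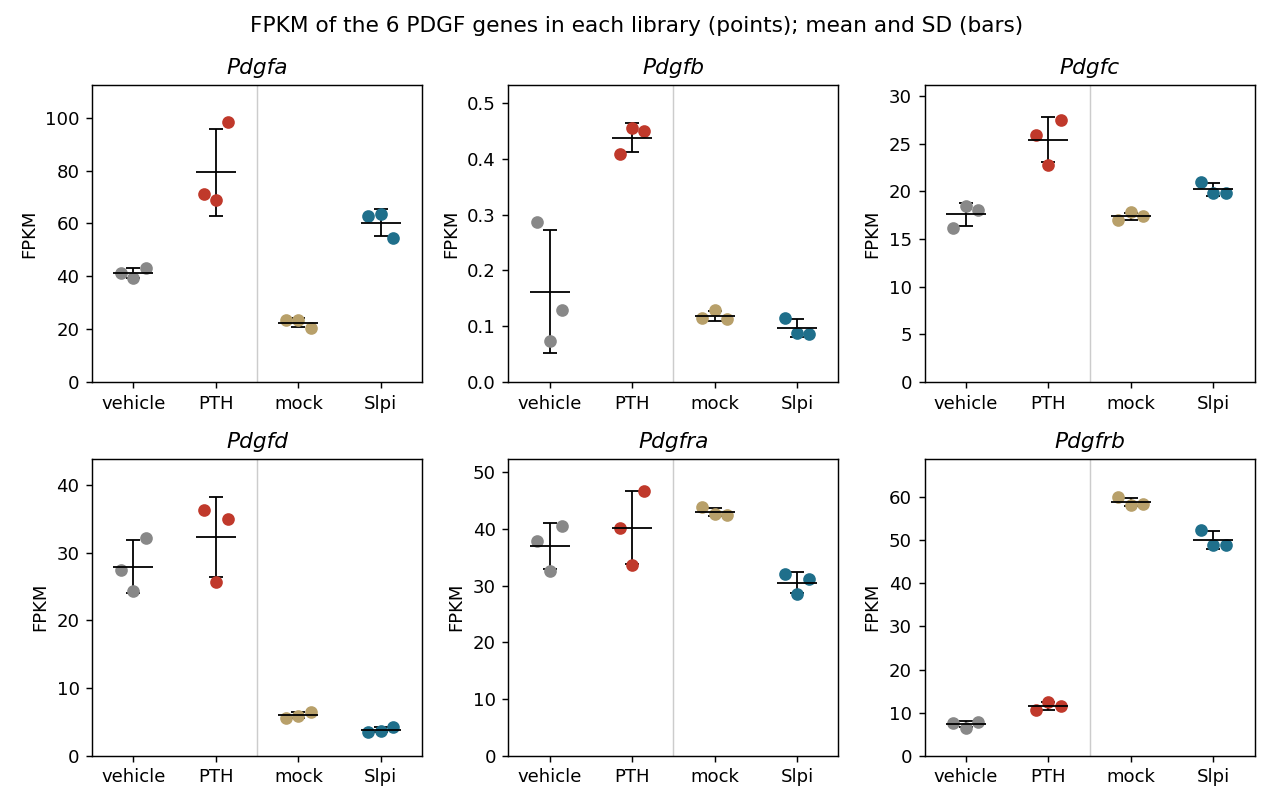
FPKM (vertical axes, each starting at 0) of the 6 PDGF genes in the 12 libraries, one panel per gene, by group (horizontal axes). Points are libraries and bars mark the mean ± SD of 3. *Pdgfa* is higher in all PTH and all *Slpi* libraries than in their controls, and *Pdgfb* stays under 0.5 FPKM throughout.

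The first comparison asks how the PDGF genes of osteoblasts differed after intermittent PTH. *Pdgfa*, *Pdgfc* and *Pdgfrb* were higher in osteoblasts of PTH-treated mice, by 1.92-, 1.45- and 1.58-fold in mean FPKM. *Pdgfd* and *Pdgfra* did not pass the test, and *Pdgfb* was too low to be tested. Thus 3 of 5 tested members were called higher and 0 lower at an adjusted *p* under 0.05, against 6.38% of all 13004 tested genes called higher, 8.85% called lower and 15.2% called in either direction (limma on log2(FPKM + 1), Benjamini-Hochberg over all tested genes). The 5 tested members were at or above 1 FPKM in every library, so that none entered through a single group. None of them reached 2-fold on the log2(FPKM + 1) scale, a size at which 0.869% of genes were called higher and 3.78% lower. The calls depended on single libraries. By limma, 0 members were called without vehicle replicate 1 or without vehicle replicate 2, although the same 3 were higher at an unadjusted *p* under 0.05, and in these fits 1 and 0 of all genes were called higher. Without PTH replicate 1, 1 member was called, *Pdgfa*. With all libraries scaled to the same FPKM sum, *Col1a1* and *Col1a2* left out of that sum, *Pdgfa* and *Pdgfrb* were called and *Pdgfc* was not. This scaling, chosen after seeing the data, moved the median of all genes to -0.138 (log2), and 20.5% of all calls were then higher rather than 41.9%.

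*Pdgfa* encodes the A chain, a ligand of PDGFRα. Its level was 41.1, 39.2 and 43.3 FPKM with vehicle and 71.0, 68.7 and 98.3 FPKM with PTH. All PTH libraries were above all vehicle libraries, and PTH replicate 3 was the highest. The log2 fold change was 0.91 (SE 0.15, 95% interval 0.56 to 1.26, limma adjusted *p* = 0.0177), which ranked 329 of 13004 genes from the highest. It was 0.74 with the collagen genes left out of an equal FPKM sum (limma adjusted *p* = 0.0183). Without PTH replicate 3 it was 0.75 (adjusted *p* = 0.00965). Without vehicle replicate 1 or 2 it was 0.91 and 0.88, with limma adjusted *p* values of 0.0851 and 0.0813. Platelets are rich in PDGF. The megakaryocyte and platelet sum was 196, 160 and 6.74 FPKM in PTH replicates 1, 2 and 3, and at most 7.13 in vehicle libraries. Its part in the *Pdgfa* values was not tested.

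*Pdgfc* encodes a latent ligand that acts mainly on PDGFRα. It was at 16.2, 18.5 and 18.0 FPKM in vehicle and 25.9, 22.8 and 27.5 in PTH libraries. The groups did not overlap, which held upwards for 19.5% of all tested genes. The log2 fold change was 0.51 (SE 0.113, 95% interval 0.24 to 0.77, limma adjusted *p* = 0.0321). It kept its call in 7 of 15 alternatives. With all libraries scaled to the same FPKM sum it was 0.45 (limma adjusted *p* = 0.05002), and 0.34 with the collagen genes left out of that sum (limma adjusted *p* = 0.0795). Leaving out vehicle replicate 1, 2 or 3 or PTH replicate 1 or 3 gave limma adjusted *p* values of 0.124, 0.1, 0.0593, 0.0924 and 0.0591, respectively.

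*Pdgfrb* encodes PDGFRβ, the receptor of PDGF-B and PDGF-D. Its level was 7.58, 6.53 and 7.86 FPKM in vehicle and 10.7, 12.5 and 11.6 in PTH libraries. Again no PTH library was as low as a vehicle library, and PTH replicate 2 was the highest. The log2 fold change was 0.60 (SE 0.121, 95% interval 0.31 to 0.88, limma adjusted *p* = 0.0259). Leaving out vehicle replicate 1 or 2 or PTH replicate 1 or 2 gave limma adjusted *p* values of 0.0962, 0.1, 0.0582 and 0.0520 and fold changes between 0.53 and 0.65. Mural cells express *Pdgfrb*. The summed level of 9 mural markers was 145, 174 and 163 FPKM in the vehicle group (replicates 1, 2 and 3, in this order) and 130, 466 and 91.6 in the PTH group. Much of this sum was *Acta2*, an actin of contractile cells, and *Des*, which were at 282 and 113 FPKM in PTH replicate 2. *Cspg4*, *Notch3* and *Abcc9* were higher in every PTH library than in any vehicle library, as were 19.5% of all tested genes. For the other mural markers the groups overlapped. Of the 8 tested mural markers, 1 was called higher, *Abcc9* (log2 fold change 0.57, limma adjusted *p* = 0.0316). Stromal and fibroblast markers, 2 of 8 of which were called higher, summed to 2663.6 to 3210 FPKM in vehicle and 3253 to 3641.4 in PTH libraries. Most of this sum was *Dcn* (means of 1807.8 and 1883.7 FPKM) and *Lum* (1065.7 and 1463.8). The log2 fold change was above 0 for 4 of the 8 genes, with a median of -0.12. The part of either list in the *Pdgfrb* values was not tested.

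*Pdgfra*, the gene of the other receptor, was at 37.9, 32.6 and 40.5 FPKM in vehicle and 40.2, 33.7 and 46.7 in PTH libraries. *Pdgfd*, whose product is a latent ligand of PDGFRβ, was at 27.4, 24.3 and 32.1 in vehicle and 36.3, 25.6 and 34.9 in PTH libraries. For each of these genes the groups overlapped. The log2 fold change was 0.11 for *Pdgfra* (95% interval -0.23 to 0.45, limma adjusted *p* = 0.618) -0.0013 without PTH replicate 3, and -0.06 with the collagen genes left out of an equal FPKM sum. For *Pdgfd* it was 0.19 (95% interval -0.20 to 0.59, limma adjusted *p* = 0.444). These intervals leave room for differences as large as that of *Pdgfc* in *Pdgfd*, but not as large as that of *Pdgfa* in either gene.

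*Pdgfb*, the gene of the B chain, was at 0.286, 0.0727 and 0.128 FPKM in vehicle and 0.409, 0.456 and 0.449 in PTH libraries. It was the only member below 1 FPKM in all 12 libraries. Scaled by relative depth, this was 5, 1 and 3 steps in vehicle and 8, 10 and 11 in PTH libraries. The step, which may be 1 read, was derived from the lowest *Pdgfb* value itself. It was the largest whole fraction of that value that put every library within 0.15 of a whole number. Closeness to whole numbers was thus the rule that set the step, and does not show that a step is a read. The groups did not overlap, and the two-sided exact permutation *p* was 0.10, the smallest that 3 libraries against 3 can give. In a limma fit of all genes without a filter the difference was 0.31 on the log2(FPKM + 1) scale (adjusted *p* = 0.0853). At this depth no fold change is given.

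**Figure D2:**
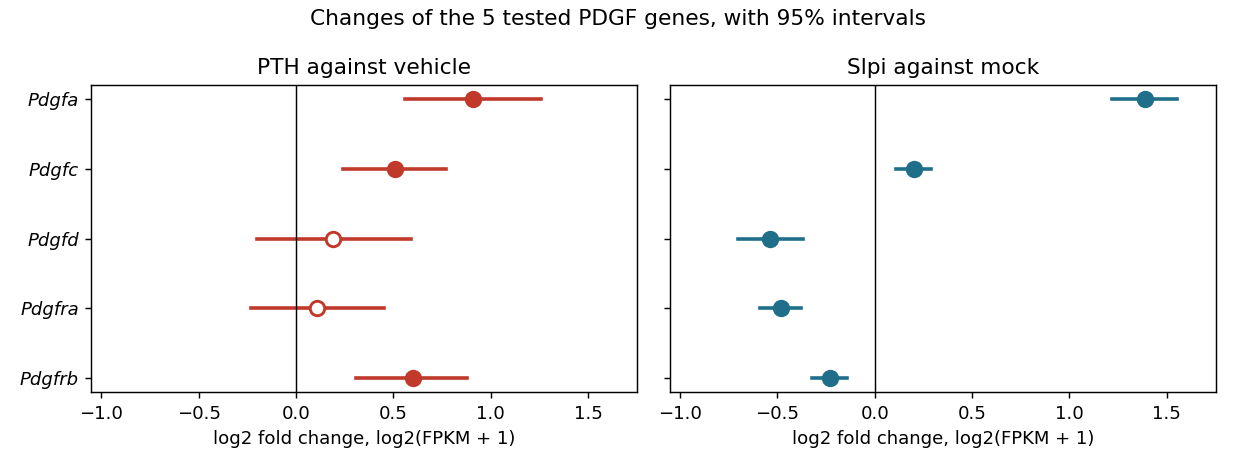
Log2 fold change, treated minus control, on the log2(FPKM + 1) scale (horizontal axis) of the 5 tested PDGF genes for PTH against vehicle and *Slpi* against mock, with 95% intervals from limma. Filled points passed an adjusted *p* of 0.05. *Pdgfa* and *Pdgfc* lie above 0 in both comparisons, whereas *Pdgfrb* lies above 0 with PTH (0.60) and below 0 with *Slpi* (-0.23).

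The second comparison asks how the same genes differed in a cell line made to overexpress *Slpi*. *Pdgfa* was 2.69-fold higher in *Slpi* than in mock cells and *Pdgfc* was slightly higher, while *Pdgfd* and both receptors were lower. All 5 tested members passed the test, 2 higher and 3 lower. This must be read against the whole table, in which 60.8% of 11466 tested genes were called, 31.9% higher and 28.9% lower. Replicates were close (Pearson's r across genes at least 0.984 within a group), so small differences passed. With all libraries scaled to the same FPKM sum, 35.4% of all calls were higher rather than 52.5%, and each of the 5 members kept its direction and call. Only *Pdgfa* was called at 2-fold or more, a size reached upwards by 0.733% of tested genes and downwards by 0.384%.

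*Pdgfa* was at 23.5, 23.3 and 20.4 FPKM in mock and 62.7, 63.5 and 54.3 in *Slpi* libraries. The lowest *Slpi* library was well above the highest mock library. The groups also did not overlap, upwards, for 34.9% of all tested genes. The log2 fold change was 1.39 (SE 0.0721, 95% interval 1.22 to 1.55, limma adjusted *p* = 3.6e-06), ranking 52 of 11466 genes. *Pdgfc* was at 17.0, 17.8 and 17.4 in mock and 21, 19.8 and 19.8 in *Slpi* libraries. Its log2 fold change was 0.20 (SE 0.0392, 95% interval 0.11 to 0.29, limma adjusted *p* = 0.00231), and 0.11 with the same FPKM sum per library (limma adjusted *p* = 0.0280). The same scaling gave 1.29 for *Pdgfa*.

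*Pdgfd* went the other way. It was at 5.58, 5.90 and 6.42 FPKM in mock and 3.55, 3.63 and 4.22 in *Slpi* libraries, with no overlap, as for 32.2% of all tested genes downwards. The log2 fold change was -0.54 (SE 0.0724, 95% interval -0.70 to -0.37, limma adjusted *p* = 3.2e-04). It was the only ligand gene that was lower in *Slpi* cells by the test. *Pdgfb* was at 0.114, 0.128 and 0.112 in mock and 0.115, 0.0880 and 0.0860 in *Slpi* libraries, or 9, 10 and 8 against 8, 6 and 6 steps. These groups overlapped (two-sided exact permutation *p* = 0.30), and a difference was not detectable at this depth.

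Both receptor genes were lower in *Slpi* cells. *Pdgfra* was at 43.9, 42.6 and 42.5 FPKM in mock and 32.0, 28.5 and 31.2 in *Slpi* libraries, with a log2 fold change of -0.48 (SE 0.0458, 95% interval -0.59 to -0.38, limma adjusted *p* = 5.5e-05). *Pdgfrb* was at 60.0, 58.2 and 58.5 in mock and 52.4, 49.0 and 48.8 in *Slpi* libraries, a log2 fold change of -0.23 (SE 0.0374, 95% interval -0.32 to -0.14, limma adjusted *p* = 8.8e-04). For each receptor every *Slpi* library was below every mock library. The mural list, which MC3T3-E1 cells express mostly as *Acta2*, an actin of contractile cells, summed to 710 to 742 FPKM in mock and 417 to 455 in *Slpi* libraries, with 2 of 3 tested genes called lower and 1 higher. Its part in the receptor values was not tested. The osteoblast markers moved at the same time, with 6 of 9 tested genes called higher and 1 lower. *Sp7* (log2 fold change 1.49), *Alpl* (1.71) and *Ibsp* (3.22) were the ones higher by 2-fold or more, and *Spp1* was lower (-0.39, limma adjusted *p* = 2.2e-05). With the same FPKM sum, 5 were called higher and 3 lower. In these cells neutrophil markers summed to at most 1.62 FPKM and lymphocyte markers to at most 0.184.

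*Pdgfrb* was called higher with PTH and lower with *Slpi*. *Pdgfra* was called lower with *Slpi* and was not called with PTH. The experiments share no libraries, but they differ in cells and were normalized separately, and the difference between their fold changes was not tested.

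The make-up of the ligand transcripts was compared next, as each gene's share of the summed FPKM of the 4 ligand genes. The share of *Pdgfa* was 48.4, 47.8 and 46.3% in vehicle and 53.1, 58.4 and 61.0% in PTH libraries. It was 50.8, 49.5 and 46.0% in mock and 71.8, 73.0 and 69.2% in *Slpi* libraries. In both experiments the share was higher in 3 of 3 treated libraries, with mean differences of 10.0 and 22.6 percentage points (two-sided exact permutation *p* = 0.10 each, the smallest possible). The share of *Pdgfd* was 32.0 ± 2.38% in vehicle and 23.5 ± 3.16% with PTH, and 13 ± 1.27% in mock and 4.54 ± 0.735% with *Slpi* (SD, n = 3, exact permutation *p* = 0.10 each). The share of *Pdgfc* was 20.3 ± 1.96% and 18.6 ± 1.37% in vehicle and PTH libraries, which overlapped, and 38.0 ± 1.21% and 24 ± 1.28% in mock and *Slpi* libraries, which did not. *Pdgfb* made up at most 0.388% in any library. The shares are parts of a fixed total, so a higher share of *Pdgfa* comes with lower shares of other ligands. In FPKM, *Pdgfd* was not called with PTH and was called lower with *Slpi*, and *Pdgfc* was called higher in both experiments.

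**Figure D3:**
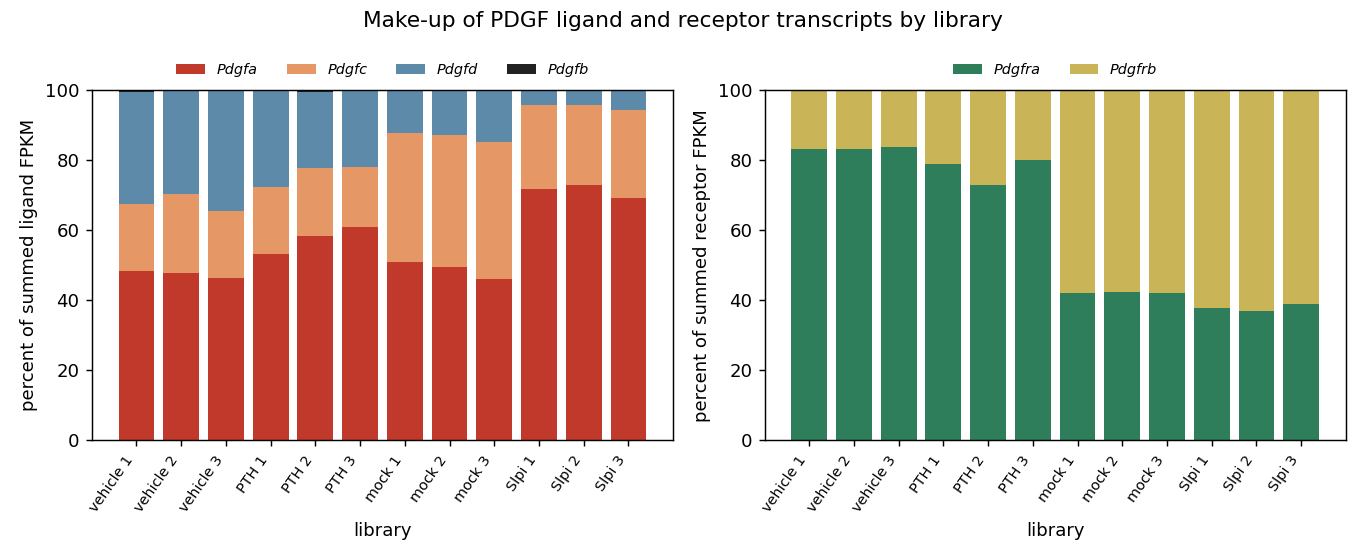
Shares (%, vertical axis) of the 4 ligand genes in their summed FPKM and of the 2 receptor genes in theirs, stacked for each of the 12 libraries (horizontal axis). The *Pdgfa* share is at most 50.8% in control libraries and at least 53.1% in treated ones, and *Pdgfra* dominates the receptors in sorted osteoblasts but not in MC3T3-E1 cells.

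The summed ligand level was 86.9 ± 5.94 FPKM in vehicle and 137 ± 22.1 in PTH libraries, and 45.9 ± 1.38 in mock and 84.2 ± 5.06 in *Slpi* libraries, without overlap in either experiment. The summed receptor level overlapped between vehicle (44.3 ± 4.69) and PTH libraries (51.8 ± 6.04), with an exact permutation *p* of 0.20 for 3 libraries against 3. It was 102 ± 1.72 in mock and 80.6 ± 3.5 in *Slpi* libraries, which did not overlap. The 2 receptors were in a different balance in each kind of cell. The ratio of *Pdgfra* to *Pdgfrb* was 5.00, 5.00 and 5.15 in vehicle and 3.76, 2.70 and 4.04 in PTH libraries. In MC3T3-E1 cells it was 0.731, 0.733 and 0.726 in mock and 0.610, 0.582 and 0.639 in *Slpi* libraries. The ratio was thus lower in every treated library of both experiments, with mean differences of -0.488 and -0.251 on the log2 scale with 1 added to each FPKM (two-sided exact permutation *p* = 0.10 each). Leaving out PTH replicate 2, the library with the most *Pdgfrb*, gave a difference of -0.318. The same direction came from different members, since with PTH *Pdgfrb* was called higher and *Pdgfra* was not called, whereas with *Slpi* both were called lower and *Pdgfra* had the larger difference.

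The other genes of the pathway were taken as 51 genes in 5 lists by role, and 6 of them were called higher and 2 lower with PTH (11.8% and 3.92%, against 6.38% and 8.85% of all tested genes). Their median log2 fold change was 0.10, and 0.01 over all tested genes. With the collagen genes left out of an equal FPKM sum, 3 were called higher and 5 lower and the median was -0.06, against -0.138 over all tested genes. The calls of *Plat*, *Spry1* and *Junb* were then lost (limma adjusted *p* = 0.0535, 0.0549 and 0.0625). Among 7 genes that process ligands, 2 were called higher. *Plat*, tissue plasminogen activator, which cleaves PDGF-C, was at 48.5, 43.5 and 57.3 FPKM in vehicle and 72.1, 67.4 and 84.5 in PTH libraries (log2 fold change 0.58, limma adjusted *p* = 0.0368). *Furin*, a convertase that processes the A and B chains, differed by 0.72 on that scale (limma adjusted *p* = 0.0379). In both genes every PTH library was above every vehicle library.

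Of 5 ligand-binding proteins and co-receptors, 1 was called, *Pdgfrl*, which encodes a secreted receptor-like protein. It was at 36.2, 39.9 and 43.9 FPKM in vehicle and 71.5, 61.2 and 78.1 in PTH libraries (log2 fold change 0.79, limma adjusted *p* = 0.0171). *Sparc*, a matrix protein that binds PDGF, had a log2 fold change of 0.66 and did not pass (limma adjusted *p* = 0.0665). Among 11 genes of attenuation and feedback, the calls were *Spry2* and *Spry1*, which encode inhibitors of receptor tyrosine kinase signalling. *Spry2* was at 9.16, 8.88 and 10.1 FPKM in vehicle and 20.7, 18.7 and 18.8 in PTH libraries (log2 fold change 0.98, limma adjusted *p* = 0.0133). *Spry1* was at 6.44, 4.96 and 6.76 in vehicle and 10.7, 9.40 and 10.0 in PTH libraries (log2 fold change 0.65, limma adjusted *p* = 0.0291). The other 9 genes of that list were not called, and the median of the 11 was -0.07.

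Of 22 receptor-bound signalling genes, 0 were called higher by limma (4 at an unadjusted *p* under 0.05) and 2 lower, among them *Nck2*, an adaptor (log2 fold change -0.95, adjusted *p* = 0.0391). *Nck2* was at 7.50, 6.19 and 4.01 FPKM in vehicle and 2.07, 3.26 and 2.22 in PTH libraries, without overlap, and the lymphocyte markers given above were lower in the same libraries. Their part in this value was not tested. Of 6 early response genes, *Junb* was called higher (0.61, limma adjusted *p* = 0.0454), but had 0.28 after quantile normalization (limma adjusted *p* = 0.205), and *Myc* was not (0.34, limma adjusted *p* = 0.154). All 8 calls were lost without vehicle replicate 1 or without vehicle replicate 2 (13 and 9 of the 51 genes were higher and 5 and 4 lower at an unadjusted *p* under 0.05), and without PTH replicate 1 only 1 of the 51 genes was called higher and 0 lower by limma.

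With *Slpi*, 46 of the 51 genes were tested, of which 16 were called higher and 11 lower (34.8% and 23.9%, against 31.9% and 28.9% of all tested genes), with a median log2 fold change of 0.04. With the same FPKM sum per library, 9 were called higher and 14 lower, and the median was -0.04. The only one called at 2-fold or more was *Pcsk6*, which encodes a proprotein convertase. It was at 0.317, 0.198 and 0.274 FPKM in mock and 2.63, 3.12 and 2.47 in *Slpi* libraries (log2 fold change 1.56, limma adjusted *p* = 5.4e-06). It passed the filter only through the *Slpi* libraries. Of the 5 tested processing genes, 3 were called higher and *Furin* was called lower (-0.38, limma adjusted *p* = 3.1e-04).

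Of 5 ligand-binding genes, 3 were called lower and 1 higher in *Slpi* cells (60% and 20%). Of all tested genes, 28.9% were called lower and 31.9% higher. *Thbs1*, which encodes the matrix protein thrombospondin 1, was at 75.4, 78.6 and 78.0 FPKM in mock and 49.1, 46.1 and 47.1 in *Slpi* libraries (log2 fold change -0.69, limma adjusted *p* = 3.4e-06). *Lrp1*, an endocytic receptor that associates with PDGFRβ, was lower too, with a log2 difference of -0.53 (limma adjusted *p* = 5.0e-05). The third was *Pdgfrl*, at -0.46, which was higher in PTH libraries. The signalling list was split, with 6 of 21 genes called higher and 7 lower (28.6% and 33.3%), near the shares of all tested genes. Its smallest *p* values belonged to *Nck2* (log2 fold change -0.41, limma adjusted *p* = 1.5e-04) and *Plcg1*, a phospholipase (-0.23, limma adjusted *p* = 5.0e-04).

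Of the feedback and early response genes, 3 of 9 and 3 of 6 were called higher (33.3% and 50%) and 0 lower. Over all tested genes 31.9% were called higher and 28.9% lower. *Spry1* was at 2.18, 2.12 and 2.23 FPKM in mock and 4.11, 3.81 and 3.92 in *Slpi* libraries (log2 fold change 0.64, limma adjusted *p* = 4.0e-05), whereas *Ptpn1*, a phosphatase, differed by 0.12 (limma adjusted *p* = 0.0179) and by 0.03 with the same FPKM sum (limma adjusted *p* = 0.510). That scaling left 1 feedback gene called higher and 1 lower, and the 3 early response calls stood. Among the latter, *Myc* was higher by 0.69 on the log2 scale (limma adjusted *p* = 3.5e-05) and *Egr1* by 0.77 (limma adjusted *p* = 3.2e-04), both growth factor-responsive transcription factors.

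**Figure D4:**
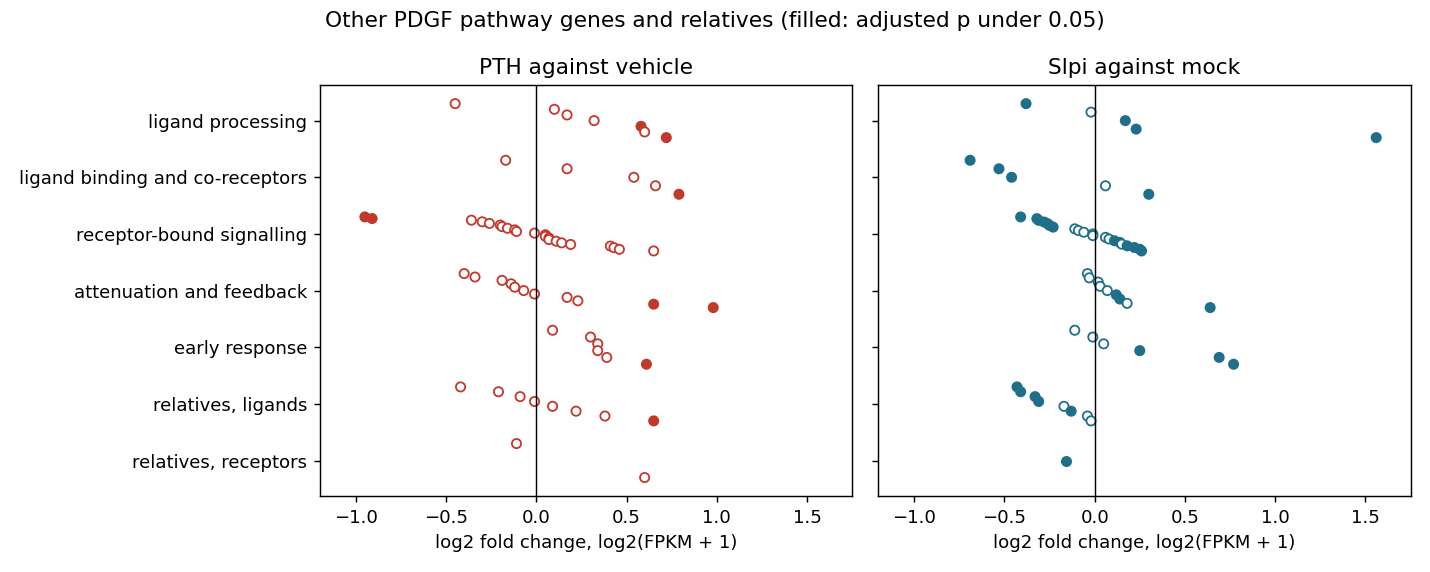
Log2 fold change, treated minus control, on the log2(FPKM + 1) scale for each tested gene of the 5 pathway lists and the relatives, one panel per comparison. Each point is a gene, filled where the adjusted *p* was under 0.05. With PTH most points are open, with 6 of 51 pathway genes called higher, and with *Slpi* filled points lie on both sides of 0.

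Related growth factor genes give a measure of how far the pattern of the PDGF ligands was shared. Of 8 tested ligand genes of the VEGF, CSF1, KIT and FLT3 families, 1 was called higher with PTH. This was 12.5%, against 6.38% of all tested genes. The gene was *Vegfa*, the vascular endothelial growth factor gene. It was at 114, 109 and 130 FPKM in vehicle and 157, 196 and 204 in PTH libraries (log2 fold change 0.65, limma adjusted *p* = 0.0251), and had 0.38 after quantile normalization (limma adjusted *p* = 0.0602). The next smallest *p* was that of *Flt3l*, the gene of a ligand of blood progenitors, which was not called (-0.42, limma adjusted *p* = 0.166). With *Slpi*, 0 of 8 were higher by limma, adjusted or not, and 5 were called lower. Over all tested genes, 31.9% were called higher and 28.9% lower with *Slpi*. *Csf1*, the macrophage colony-stimulating factor gene, was at 209, 210 and 214 FPKM in mock and 177, 160 and 174 in *Slpi* libraries (log2 fold change -0.31, limma adjusted *p* = 3.3e-04). *Figf*, which encodes VEGF-D, differed by -0.43 on the log2 scale (limma adjusted *p* = 5.4e-04). Of the related receptor genes, 2 were tested in sorted osteoblasts, *Csf1r* (0.60, limma adjusted *p* = 0.174) and *Kit* (-0.11, limma adjusted *p* = 0.765), and 0 passed in limma, adjusted or not. The only one tested in MC3T3-E1 cells, *Flt1*, was lower (-0.16, limma adjusted *p* = 0.00917).

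The genes whose levels followed those of a member most closely were sought among 10094 genes tested in both experiments, by the smaller of the 2 Pearson's r over the 6 libraries of each experiment on the log2(FPKM + 1) scale. For *Pdgfa* they were *Rps27a* (r of 0.992 in the sorted libraries and 0.990 in those of MC3T3-E1 cells), *Fgfr1* (0.989 and 0.992) and *Lrrc59* (0.989 and 0.997). *Cd63*, *Prdx4* and *Pdlim4* were most like *Pdgfc*, *Shf*, *Plod2* and *Lhfp* most like *Pdgfd*, *Sphk1*, *Snn* and *Loxl4* most like *Pdgfra*, and *Rhoc*, *Gpc6* and *Ctsa* most like *Pdgfrb*. The smaller r of these genes lay between 0.933 (*Lhfp*) and 0.990 (*Cd63* and *Prdx4*). The 6 points share library depth and include both groups, so r reflects the difference between groups as well as the spread within them, and it is given as a description only.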

How the data were processed

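RNA-Seq values of 6 libraries of sorted osteoblasts and 6 of MC3T3-E1 cells were used. According to the methods and the submitters' processing notes, the authors sequenced 75-base single reads, mapped them to mm10 (TopHat 2.0.13, Bowtie2 2.2.3, SAMtools 0.1.19) and deposited FPKM from Cuffnorm (Cufflinks 2.2.1). The annotation, strand setting and scaling option are not given in the sources used here. The methods give the SMART-Seq v4 kit for both experiments, whereas the labels give a stranded TruSeq kit for the MC3T3-E1 libraries. Depth is unknown. The steps of low FPKM values gave relative depths of 0.787 to 1.4 and 0.87 to 1, against the first library of each experiment. A step may stand for more than 1 read, and reads so derived cover counting error only.

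Each experiment was fitted alone, 3 libraries against 3, in limma (version 3.58.1, R 4.3.3) on log2(FPKM + 1), by two-sided moderated tests with an intensity trend. The 1 added to each FPKM understates changes of low genes. A gene was tested if any of the 6 libraries reached 1 FPKM, and *p* values were adjusted over all of them by the Benjamini-Hochberg method, with calls at 0.05. The model was run on simulated data with changes larger than those of the members. That run does not bear on calls of their size. Exact permutation tests were computed with scipy 1.17.1, numpy 2.4.6 and pandas 2.3.3 in Python 3.11.15. The members and gene lists were chosen with earlier results of these data known. All members are described. Of each pathway list and of the relatives, the genes named are those called at 2-fold or more, or else the 2 with the smallest *p*. *Spry4* is named besides, as a relative of *Spry1* and *Spry2*. Marker lists are given by counts and sums. *Sp7*, *Alpl*, *Ibsp*, *Spp1*, *Bglap*, *Runx2*, *Col1a1*, *Col1a2*, *Abcc9*, *Acta2*, *Des*, *Cspg4*, *Notch3*, *Dcn* and *Lum*, and *Pdgfrl* and *Furin* in the *Slpi* comparison, are named besides as markers or for their values in the other comparison. Alternatives were another pseudocount (0.1), no filter, a filter on the mean, no trend, an unmoderated model, quantile normalization, the same FPKM sum per library, a replicate block and leaving out each library in turn. The same FPKM sum with *Col1a1* and *Col1a2* left out of the sum was added after seeing the data. Other genes of the tables were used only as background. The values of 1 gene of the pathway lists are not reported here.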

Additional observations from a re-analysis of the deposited data

How the results depend on the processing

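In MC3T3-E1 cells, all 5 tested PDGF genes kept their direction and call in all 15 alternatives (*Pdgfa* 1.29 to 1.46, *Pdgfc* 0.11 to 0.22, *Pdgfd* -0.64 to -0.49, *Pdgfra* -0.57 to -0.43, *Pdgfrb* -0.32 to -0.21). The number of all genes higher was 2430 instead of 3658, and lower 4438 instead of 3315, with the same FPKM sum per library (2430 and 4450 with *Col1a1* and *Col1a2* left out of the sum). In sorted osteoblasts, *Pdgfa*, *Pdgfc* and *Pdgfrb* kept their direction in all 15 alternatives and their calls in 12, 7 and 10. The unmoderated linear model called 0 of the 5 members higher, with log2 fold changes of 0.91, 0.51 and 0.60 (adjusted *p* = 0.0824, 0.0824 and 0.0768), and 0 of all genes higher and 1 lower, where 1781 and 2042 had an unadjusted *p* under 0.05. The same FPKM sum gave 0.45 for *Pdgfc* (adjusted *p* = 0.05002) and 546 genes higher against 1201 lower, so that 31.3% of calls were higher instead of 41.9%. With the collagen genes left out of that sum, an alternative chosen after seeing the data, *Pdgfc* was at 0.34 (adjusted *p* = 0.0795), *Pdgfra* at -0.06, and 406 genes were higher and 1573 lower, or 20.5% of calls higher. Without the filter 517 genes were higher instead of 830.

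Leaving out 1 sorted library at a time gave 0 to 2 members called higher, 0 to 674 genes higher, 0 to 895 lower, and log2 fold changes of 0.75 to 1.0 (*Pdgfa*), 0.45 to 0.58 (*Pdgfc*), 0.53 to 0.65 (*Pdgfrb*) and 0.10 to 0.35 (*Pdgfd*). *Pdgfra* was at -0.0013 without PTH replicate 3 and up to 0.23 without others. Without vehicle replicate 1, 1 gene was higher and 0 lower by limma, and without vehicle replicate 2, 0 and 0 (unadjusted *p* under 0.05: 1481 and 1700, then 1415 and 1638). The cause of these changes was not tested. A fit with 2 libraries in a group also has less to estimate the spread from.

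Whether samples with the same replicate number were paired is not given. The correlations of their deviations were 0.029, 0.073 and 0.102 in sorted osteoblasts and 0.039, -0.052 and 0 in MC3T3-E1 cells. Between different replicate numbers they were -0.116 to 0.069 and -0.099 to 0.105. Values this small do not decide whether there was a pairing. A replicate block changed no call of a member (*Pdgfa* 0.91, *Pdgfc* 0.51 with an adjusted *p* of 0.0408, *Pdgfrb* 0.60) and gave 1028 genes higher and 1234 lower with PTH, and 3752 and 3420 with *Slpi*. With PTH it called 11 instead of 6 of the other 51 pathway genes higher. For the *Pdgfra* to *Pdgfrb* ratio and the *Pdgfa* share, the blocked exact permutation *p* was 0.25, the smallest possible with 3 pairs. Depth limits *Pdgfb* above all, with at most 11 reads in any library if a step is 1 read.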
